A study of Mus musculus with 24 samples.

Results

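The genes described here are 6 neuropeptide precursor genes, Cck, Vip, Sst, Npy, Tac1 and Penk, and the gene of the cholecystokinin B receptor, Cckbr. They were taken by gene name from a table of 56748 genes, in which each of the 7 names had a single row. Read counts of these 7 genes were followed in 24 RNA sequencing libraries from 12 mice, with a neural retina and an eye cup from each mouse. The eye cup is what remained after the retina was dissected out, that is the retinal pigment epithelium (RPE), choroid and sclera.

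Each tissue came from 4 groups of 3 mice. PRDM13-OE mice are C57BL/6J knock-in mice with 1 copy of a doxycycline (dox)-inducible human PRDM13 gene at the Rosa26 locus, and the controls are their wildtype littermates. Mice of both genotypes were either left untreated or given drinking water with dox at 2 mg/ml and 10% sucrose, over 72 hours from P28. The labels do not say whether the untreated mice received sucrose. The rtTA activator of the cassette is driven by the ubiquitous EF-1α promoter, so PRDM13 was not targeted to amacrine cells, and the study describes some expression of the transgene without dox. The libraries are from separate mice within a group, and mouse numbers were repeated in each group for different animals.

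Neuropeptides are made as longer precursors, cut and modified in the secretory pathway, packed in dense-core vesicles and released to act on G protein-coupled receptors. In the retina they are best known from amacrine cells, the inhibitory interneurons of the inner retina, where each peptide marks a small subset of cells beside GABA or glycine. The transcription factor PRDM13 is known to act in the specification of amacrine cells during development. Cholecystokinin, the peptide encoded by Cck, acts on a receptor encoded by Cckbr that also binds gastrin, and on a second receptor encoded by Cckar.

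Between 15825059 and 24908314 reads per library were counted on genes. Values are given as CPM, read counts scaled to the TMM-adjusted total of each library with factors set within each tissue, for comparisons of 1 gene between samples, and as FPKM, which is also scaled to gene length, for comparisons between genes. Differences are log2 fold changes with their standard errors (SE) from edgeR's quasi-likelihood test, with p-values adjusted over all genes tested by the Benjamini-Hochberg method. A difference passed the test at an adjusted p under 0.05, and was called where it was also past 1 on the log2 scale. Each group had 3 mice, except in fits described as leaving a library out.

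Some libraries stood apart from their group. The retina and eye cup labelled PRDM13-OE untreated mouse 1 had 79 and 62 counts of Gm13394, a gene with at least 3290 counts in every other PRDM13-OE library and between 32 and 135 in the wildtype libraries, so these 2 libraries went against their label, and the differences of the 7 genes printed in the text that use them are also given without them, apart from those of fits with a covariate. Gm13394 was chosen after its values were seen. In the eye cup of PRDM13-OE untreated mouse 3, 127 of 11926 broadly expressed genes were listed at 0, against at most 24 in any other library. Wildtype dox retinas 1 and 2 held 11257 and 4742 CPM of 15 lens crystallin transcripts, against 3.83 to 894 CPM in the other 10 retinas, and eye cups varied in retinal transcripts, with 2842 to 44487 CPM summed over 10 rod genes. All 3 PRDM13-OE mice with dox had Xist, the X-inactivation transcript of females, at 1039 counts or more, while 1 of 3 wildtype mice with dox, 1 of 3 untreated PRDM13-OE mice and 2 of 3 untreated wildtype mice had at most 1 count in either tissue. Hbb-bs, a red blood cell globin gene, was at 0.118 to 0.439 CPM in the retinas of PRDM13-OE mice with dox and at 11.6 to 36.8 CPM in the other 9, and in eye cups at 4.50 to 4.75 and at 104 to 1318 CPM. Hbb-bs, too, was singled out after its values were seen, and the part of sex in the differences below was not tested. Mouse Prdm13 was at 44.8 to 60.3 CPM in every retina, and the human transcript was not analysed here.

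All 7 genes were detected in all 12 retinas. By FPKM, the order in untreated wildtype retinas was Npy (20.5 ± 4.01, mean ± SD), Penk (18.3 ± 4.11), Cck (13.5 ± 2.41), Sst (7.78 ± 1.07), Tac1 (5.29 ± 0.206), Cckbr (4.93 ± 0.604) and Vip (4.25 ± 0.589). Of neighbours in this order, Cck and Sst, and Sst and Tac1, did not overlap between mice, and the other neighbours did. A list of 16 amacrine marker genes summed to between 2500 and 2982 CPM in the retinas, with at most 1 of its genes at 0 in any of them.

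The cholecystokinin receptor gene Cckbr (ENSMUSG00000030898, GRCm39 chr7:105074938-105120105, plus strand) was lower in the retinas of PRDM13-OE mice given dox than in those of every other group. It was at 3.59, 2.86 and 2.48 CPM in the PRDM13-OE mice with dox, from 61, 52 and 46 counts. In wildtype mice with dox it was at 13.0, 16.2 and 19.3 CPM. All 3 PRDM13-OE retinas with dox lay below the other 9, whose values ran from 13.0 to 19.3 CPM. Untreated PRDM13-OE retinas had 15.9, 18.6 and 15.1 CPM, and untreated wildtype retinas had 15.3, 13.8 and 17.2 CPM. The same 3 retinas were set apart by Hbb-bs and were all from mice with Xist, and the 5 other retinas with Xist had 13.0 to 18.6 CPM of Cckbr. Whether Hbb-bs differed through blood content, and what part it had in the Cckbr difference, was not tested.

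With dox, Cckbr fell by 2.45 on the log2 scale in PRDM13-OE relative to wildtype retinas (SE 0.18, 95% confidence interval -2.85 to -2.05, adjusted p 5.2e-06), which is 5.47-fold lower. Cckbr and Penk were the 2 of the 7 genes called in this comparison, in which 2.41% of all 20560 genes tested were called and 12.5% passed the test alone. Against the untreated PRDM13-OE retinas Cckbr fell by 2.48 (SE 0.16, adjusted p 1.3e-06), and it was the only 1 of the 7 called, where 1.04% of all genes were called and 5% passed. Both comparisons share the PRDM13-OE retinas with dox. Without untreated PRDM13-OE mouse 1, whose library went against its label, the second difference was -2.51 (adjusted p 2.3e-06) and the interaction described next was -2.58 (adjusted p 8.1e-06).

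Dox in wildtype mice and the genotype without dox gave no difference in Cckbr that passed the test. The difference was 0.07 (SE 0.14, 95% confidence interval -0.24 to 0.37) for dox in wildtype retinas and 0.11 (SE 0.13, -0.17 to 0.38) for PRDM13-OE against wildtype without dox, or 0.13 without untreated PRDM13-OE mouse 1. In a fit over all 12 retinas, the difference between the dox effects of the 2 genotypes, the interaction, was -2.55 for Cckbr (SE 0.22, 95% confidence interval -3.02 to -2.07, adjusted p 3.2e-06). That was the only call among the 7 genes in this fit, where 0.87% of 22538 genes were called and 3.03% passed. Leaving out any 1 retina kept Cckbr between -2.61 and -2.30 in the comparison with dox, and with wildtype dox retinas 1 and 2 both left out it was -2.71. The latter fit has a single wildtype retina with dox, mouse 3, which is assumed to vary like the PRDM13-OE retinas and was the highest of its group in Cckbr.

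**Figure D1:**
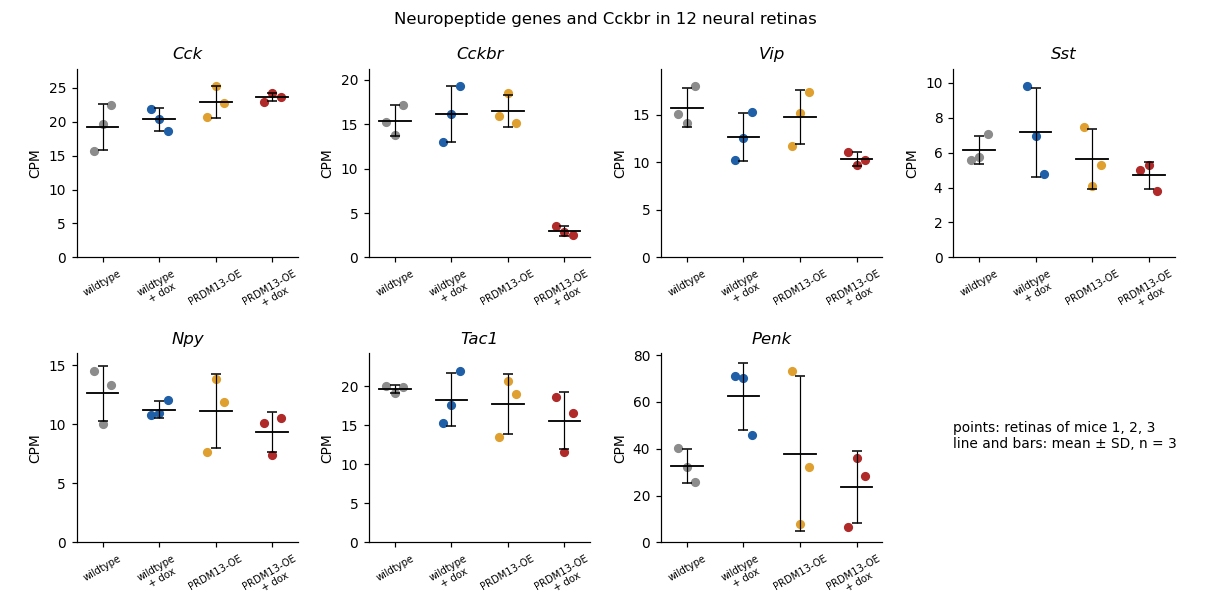
CPM of each of the 7 genes in the 12 neural retinas, 1 panel per gene, with a point for each mouse and a line and bars for the mean ± SD of each group. In the Cckbr panel the 3 PRDM13-OE retinas with dox sit between 2.48 and 3.59 CPM, below the other 9 at 13.0 to 19.3, while the points of the same groups overlap for Sst and Tac1.

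Cck (ENSMUSG00000032532, GRCm39 chr9:121318890-121324760, minus strand), the precursor of the ligand, had no difference that passed the test in the retina. Retinas of PRDM13-OE mice with dox had 22.9, 24.2 and 23.7 CPM of Cck, and those of wildtype mice with dox had 21.9, 20.5 and 18.6 CPM. The 3 PRDM13-OE values lay above the 3 wildtype values, but the difference of 0.21 (SE 0.08, 95% confidence interval 0.03 to 0.38) did not pass after adjustment (p 0.0228, adjusted p 0.115), though it did with library size in place of TMM (0.30, adjusted p 0.0268). Against untreated PRDM13-OE retinas, at 20.7, 25.3 and 22.8 CPM, the difference was 0.04 (95% confidence interval -0.16 to 0.24), and it was -0.03 (adjusted p 0.928) without mouse 1 of the untreated group, the lowest of them. Cckar, the other cholecystokinin receptor gene, was near the detection limit in retina, with 1 to 11 counts per library, and its difference between the dox groups was -0.51 (SE 0.61, adjusted p 0.655).

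The 250 bases before the annotated start are shown for Cckbr, which carried the largest difference of the 7 genes between groups of retinas, and for Cck, its ligand's gene, which had none that passed. Sequences are from RefSeq (GRCm38.p6, another build than that of the counts), which held 6 of the 7 genes. Capitals mark CANNTG, the E-box letters bound by basic helix-loop-helix factors, a motif that reads the same on both strands.
Cckbr promoter, chr7:105425481-105425730, plus strand: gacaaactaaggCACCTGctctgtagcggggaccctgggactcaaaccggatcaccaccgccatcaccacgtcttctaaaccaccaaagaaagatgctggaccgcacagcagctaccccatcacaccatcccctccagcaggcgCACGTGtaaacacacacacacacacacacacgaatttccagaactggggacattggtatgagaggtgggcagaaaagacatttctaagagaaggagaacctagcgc
Cck promoter, chr9:121495695-121495944, minus strand: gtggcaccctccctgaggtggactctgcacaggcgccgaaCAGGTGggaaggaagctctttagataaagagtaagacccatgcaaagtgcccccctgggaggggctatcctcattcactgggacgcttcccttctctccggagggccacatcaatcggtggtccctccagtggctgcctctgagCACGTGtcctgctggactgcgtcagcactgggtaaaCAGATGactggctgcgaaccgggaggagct
Cckbr had 2 such sites, beginning 238 and 106 bases before the start, and Cck had 3, beginning 210, 66 and 30 bases before it. Of 32851 promoter windows of this length, 66.2% held at least 1 CANNTG and 31.8% held 2 or more. Both windows also held 1 CACGTG, a form of the E-box counted among those sites, which was in 6.02% of all windows and also in that of Tac1. Of the other matched genes, Tac1 had 2 CANNTG sites, Sst had 1, and Vip and Npy had none. The cAMP response element TGACGTCA was searched too and was found in Sst, as in 1.55% of all windows. These are matches of letters only.

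Penk (ENSMUSG00000045573, GRCm39 chr4:4133531-4138819, minus strand), the precursor of the enkephalins, which act on opioid receptors, was the other gene called between the dox groups. PRDM13-OE retinas with dox had 6.59, 35.9 and 28.4 CPM, and wildtype retinas with dox had 71.2, 70.2 and 45.7 CPM. The groups did not overlap, though PRDM13-OE mouse 1 was far below the other 2. Penk fell by 1.40 on the log2 scale (SE 0.39, 95% confidence interval -2.24 to -0.56, adjusted p 0.035), and the call was lost when PRDM13-OE dox mouse 1 or 3 or wildtype dox mouse 1 or 2 was left out, over a range of -1.84 to -0.97. It was also lost with DESeq2 (adjusted p 0.166) and with robust fitting (adjusted p 0.272).

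Penk varied most widely in the untreated PRDM13-OE retinas. They had 73.4, 7.89 and 32.2 CPM, so that this group alone held nearly the whole range of the 12 retinas. The 73.4 CPM was in mouse 1, whose library went against its label. Untreated wildtype retinas had 40.2, 32.3 and 25.7 CPM, all below the 3 wildtype retinas with dox, a difference of 0.93 (SE 0.18) that did not pass (adjusted p 0.153), and was 1.12 and called (adjusted p 0.00214) without wildtype dox mouse 3. The comparison of PRDM13-OE retinas with and without dox gave -0.67 (SE 0.60, adjusted p 0.685), or 0.25 (adjusted p 0.889) without untreated mouse 1. The interaction was -1.60 (SE 0.75, adjusted p 0.337), or -0.68 (adjusted p 0.714) without that mouse.

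Transcripts of other tissues moved with Penk. A list of 8 fibroblast marker genes, such as the collagen gene Col1a1 and the proteoglycan gene Dcn, was summed in each retina. Among the retinas with dox the sum was lowest in PRDM13-OE mouse 1, at 36.0 CPM, with 123 and 124 CPM in mice 2 and 3. Wildtype retinas with dox had sums of 221, 202 and 161 CPM. In the untreated groups their sums were 229, 29.6 and 111 CPM in PRDM13-OE and 125, 81.4 and 107 CPM in wildtype. The 2 retinas lowest in Penk were the 2 lowest in this sum, and the 3 highest in Penk were the 3 highest in it. An alternative chosen after seeing the data used the mean log2 CPM of the fibroblast list as a covariate over all 12 retinas. The Penk difference between the dox groups was then -1.05 (adjusted p 0.0459). Crystallin sums were 3.83 to 126 CPM in PRDM13-OE retinas and 119 to 11257 CPM in wildtype retinas. A crystallin covariate can therefore hardly be told apart from genotype. With the mean log2 CPM of the crystallins as the covariate, the Penk difference was -0.05 (adjusted p 0.988). With wildtype dox retinas 1 and 2, the crystallin-rich pair, left out, it was -0.95 and not called, against mouse 3 alone, the lowest wildtype retina with dox in Penk. None of the 8 fibroblast genes passed the test between the dox groups, with a median difference of -0.43, while all 15 crystallins were called lower in PRDM13-OE, and the part of either tissue in the Penk difference was not tested further. Of 11 RPE and pigment genes, 6 passed as lower and 3 were called in the same comparison (median -0.45), with sums of 629 to 646 CPM in PRDM13-OE and 828 to 878 CPM in wildtype retinas with dox, and their part was not tested.

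**Figure D2:**
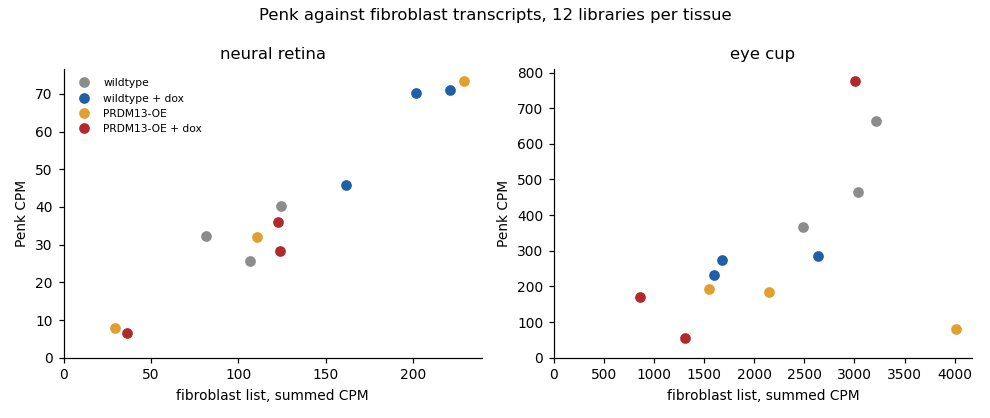
CPM of Penk against the summed CPM of 8 fibroblast marker genes, with a point for each library and a colour for each of the 4 groups. The 2 retinas with the lowest Penk, at 6.59 and 7.89 CPM, have the lowest sums, 36.0 and 29.6 CPM, and the 3 highest in Penk, at 70.2 to 73.4 CPM, have the highest, 202 to 229 CPM.

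Vip, Sst, Npy and Tac1 did not pass the test between the dox groups of the retina at the main settings. Vip (ENSMUSG00000019772, GRCm39 chr10:5589218-5597617, plus strand) encodes vasoactive intestinal peptide, known from a small set of GABAergic amacrine cells. Its values were 11.1, 9.72 and 10.2 CPM in PRDM13-OE mice with dox and 10.2, 12.6 and 15.2 CPM in wildtype mice with dox, a difference of -0.30 (SE 0.14, adjusted p 0.212). These groups overlapped. Untreated PRDM13-OE retinas, at 11.7, 15.2 and 17.3 CPM, lay above all 3 PRDM13-OE retinas with dox, and untreated wildtype retinas had 15.1, 14.1 and 18.1 CPM. The dox difference in PRDM13-OE retinas was -0.51 (SE 0.15) and narrowly missed the threshold (adjusted p 0.0704), which it passed with DESeq2 (adjusted p 0.0318) and with robust fitting (adjusted p 0.0336). Without untreated mouse 1, whose label is in doubt, it was -0.65 and passed (adjusted p 0.0071), below the cutoff of 1. In wildtype retinas the dox difference of Vip was -0.32 (SE 0.15, p 0.0525), and the interaction was -0.19 (SE 0.22, adjusted p 0.753), or -0.33 (SE 0.20, adjusted p 0.513) without untreated PRDM13-OE mouse 1, so a difference between genotypes in this dox effect was not detected in either fit. With wildtype dox retinas 1 and 2 left out, Vip was at -0.56 between the dox groups, a value that rests on wildtype mouse 3 alone, the highest of its group in Vip.

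Sst (ENSMUSG00000004366, GRCm39 chr16:23708323-23709708, minus strand) encodes somatostatin, an inhibitory peptide of sparse amacrine cells. PRDM13-OE retinas with dox had 5.00, 5.27 and 3.83 CPM, and wildtype retinas with dox had 9.83, 6.93 and 4.76 CPM. The groups overlapped, and the wildtype mice spread from 4.76 to 9.83 CPM in the same order as their crystallin sums of 119, 4742 and 11257 CPM. The difference was -0.62 (SE 0.24, adjusted p 0.122), and it passed, below the cutoff, without wildtype dox mouse 3 (-0.83, adjusted p 0.0177) and without a filter on low counts (adjusted p 0.0068). It was -0.32 without wildtype dox mouse 1, and -0.03 against wildtype dox mouse 3 alone, the lowest of its group. With the crystallin covariate, which can hardly be told apart from genotype, it was 0.38 (adjusted p 0.683).

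Npy (ENSMUSG00000029819, GRCm39 chr6:49799690-49806487, plus strand) encodes neuropeptide Y. It was at 10.1, 7.36 and 10.5 CPM in PRDM13-OE retinas with dox, just below the 10.7, 11.0 and 12.0 CPM of wildtype retinas with dox. The groups did not overlap, and the difference of -0.27 (SE 0.14, adjusted p 0.249) did not pass. Tac1 (ENSMUSG00000061762, GRCm39 chr6:7554879-7565834, plus strand) encodes substance P and neurokinin A. Retinas had 18.6, 11.5 and 16.6 CPM of Tac1 in PRDM13-OE mice with dox and 15.3, 17.6 and 22.0 CPM in wildtype mice with dox, with overlapping groups and a difference of -0.23 (SE 0.17, adjusted p 0.418).

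Among the 7 genes, none passed in wildtype retinas with against without dox, where 1 gene of 20631, or 0.00485%, was called and 0.00485% passed. The number called was 26 with DESeq2, 186 without a filter on low counts and 126 without wildtype dox retina 3. None passed in untreated PRDM13-OE against untreated wildtype retinas, where edgeR called 0 genes of 20668 (0%) and 0.00484% passed without the cutoff, with 778 at an unadjusted p under 0.05 and 2 called by DESeq2. Differences of the 7 genes in that comparison of genotypes without dox were between -0.18 and 0.26, and values without PRDM13-OE mouse 1 were between -0.71, for Penk, and 0.33, for Cck, with none passing.

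**Figure D3:**
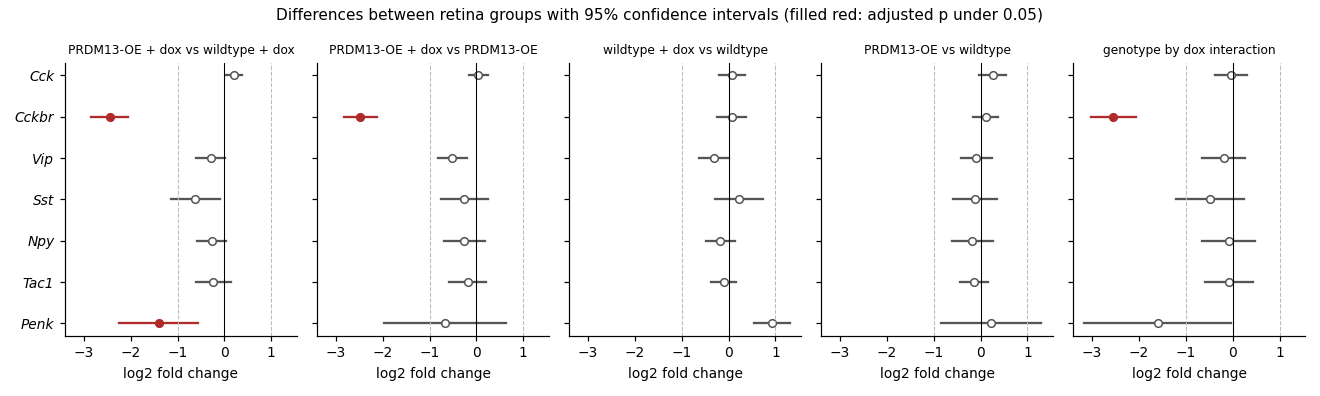
Log2 fold changes of the 7 genes in the retina with 95% confidence intervals, 1 panel for each of the 4 comparisons of groups and 1 for the interaction, with filled points where the adjusted p was under 0.05 and dashed lines at the cutoff of 1. Cckbr sits at -2.45, -2.48, 0.07, 0.11 and -2.55 from left to right, and among the other genes the lowest interval bound, apart from those of Penk, is -1.22, for Sst in the interaction.

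For each gene, the genes most alike over the 12 retinas were found by Pearson's r of log2 CPM among 14853 genes with a mean of at least 1 CPM, as a description. The points share libraries and groups. Cckbr was followed most closely by Gulo (r = 0.9925), Plekho2 (0.9903) and Epb41l5 (0.9857). Penk was followed by Slc13a4 (0.9824), Niban1 (0.9775) and Klhdc7a (0.9744). The closest genes of the other 5 had r between 0.8895 and 0.927, and they were Snf8 for Cck, Pxk for Vip, Smyd5 for Sst, Armcx4 for Npy and Rwdd4a for Tac1. Npy was itself the third closest gene of Tac1 (0.8681).

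Other genes of peptide signalling were examined in 3 lists. Of 21 neuropeptide receptor genes beside Cckbr, 18 could be tested between the dox groups of the retina, 0 rose and 2 fell, or 11.1%, against the 12.5% of all genes that passed. Both were tachykinin receptors. Tacr3, the neurokinin B receptor, fell by 0.38 (SE 0.07, adjusted p 0.00572), from 43.1 to 48.1 CPM in wildtype to 33.4 to 38.1 CPM in PRDM13-OE retinas. Tacr1, the receptor of substance P, fell by 0.90 (SE 0.20, adjusted p 0.0111), from 12.8 to 24.5 CPM to 8.47 to 10.5 CPM, and it was also lower in the interaction by 0.96 (SE 0.25, adjusted p 0.0474). The first difference did not pass without PRDM13-OE dox mouse 1 (-0.84, adjusted p 0.0523) or mouse 2 (-0.91, adjusted p 0.0539), and the interaction passed in only 1 of 12 fits with a retina left out, over a range of -1.15 to -0.66, at -0.92 (adjusted p 0.0855) without untreated PRDM13-OE mouse 1. The highest value of Tacr1, 24.5 CPM, was in wildtype dox retina 2, of the crystallin-rich pair. Retina 1, of the same pair, had 15.9 CPM and retina 3 had 12.8 CPM. These values lay above those of the PRDM13-OE retinas with dox, and the part of lens content was not tested. The ligand gene of Tacr1, Tac1, did not pass in the comparison with dox or in the interaction. The median difference of the receptor list was -0.27, against 0.0056 over all genes, and none of its genes was called.

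Of 34 other peptide precursor genes, 20 could be tested and 1 of them (5%, against 12.5% of all genes), Vgf, a granin-family peptide precursor, passed, with a difference of -0.47 (adjusted p 0.0182) and a median of -0.04 over the list. Against untreated PRDM13-OE retinas, Vgf fell by 0.82 (adjusted p 0.00255) and Adcyap1, the precursor of the VIP-related peptide PACAP, fell by 0.67 (adjusted p 0.0477), which is 10% of the 20 tested where 5% of all genes passed. Without untreated PRDM13-OE mouse 1 these were -0.88 (adjusted p 0.00222) and -0.72 (adjusted p 0.0556), and Adcyap1 passed in 0 of 6 fits with a retina left out (-0.77 to -0.58, adjusted p 0.0556 to 0.191). PRDM13-OE retinas with dox had 46.9 to 68.3 CPM of Vgf, below the 77.2 to 125 CPM of all other retinas.

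Of 18 genes of peptide processing and dense-core vesicles, 7 fell and 1 rose between the dox groups, 44.4% in all against 12.5% of all genes, with none called and a median of -0.05. Pcsk1, the prohormone convertase that cuts peptide precursors, fell by 0.72 (SE 0.10, adjusted p 0.000666), from a mean of 21.8 ± 2.14 CPM to 13.3 ± 1.13 CPM. Pam, which amidates peptide ends, fell by 0.35 (adjusted p 0.000799). The granin Scg3 fell by 0.34 (adjusted p 0.00178), the vesicle phosphatase-like Ptprn2 by 0.35 (adjusted p 0.00484) and the vesicle synaptotagmin Syt4 by 0.32 (adjusted p 0.00586). Tpst1, a tyrosine sulfotransferase of the kind that modifies cholecystokinin, rose by 0.32 (adjusted p 0.0102). The other 2 that fell, Scg2 (-0.23, adjusted p 0.023) and Cadps (-0.22, adjusted p 0.0208), named here after their values were seen, passed in only 3 of 6 fits each with a retina left out. Against untreated PRDM13-OE retinas, Pcsk1 fell by 0.71 (adjusted p 0.00416) and Chga by 0.26 (adjusted p 0.025), while Cadps2 rose by 0.59 (adjusted p 0.033). Without untreated PRDM13-OE mouse 1, Pcsk1 was at -0.72 (adjusted p 0.00808), Chga at -0.30 (adjusted p 0.0168) and Cadps2 at 0.58 (adjusted p 0.0615). With each of the 6 retinas left out in turn, Chga passed in 3 fits (-0.30 to -0.22) and Cadps2 in 1 (0.48 to 0.72). Of these genes, Pam was lower in the interaction by 0.33 (SE 0.09, adjusted p 0.0475), which passed in 2 of 12 fits with a retina left out and was -0.28 (adjusted p 0.103) without untreated PRDM13-OE mouse 1. None of the 3 lists had a gene that passed in wildtype dox against untreated retinas or in the untreated genotypes.

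Amacrine, ganglion cell and rod markers were measured in the same libraries. The 16 amacrine genes summed to 2500 to 2561 CPM in PRDM13-OE retinas with dox and to 2684 to 2982 CPM in the other 9 retinas, and of the 15 tested between the dox groups 4 passed as lower and 1 as higher, with a median of -0.13, where 12.5% of all genes passed in either direction. Of 11 ganglion cell genes, 3 passed as lower and 0 as higher (median -0.16), with sums of 1360 to 1463 CPM in PRDM13-OE and 1465 to 1736 CPM in wildtype retinas with dox. Rod genes summed to 48812 to 55608 CPM in PRDM13-OE retinas with dox and to 66484 to 72760 CPM in the other 9, with 8 of the 10 passing as lower between the dox groups and a median of -0.43. In bulk RNA, fewer cells of a type and less RNA per cell cannot be told apart, and the part of these lists in the differences above was not tested.

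**Figure D4:**
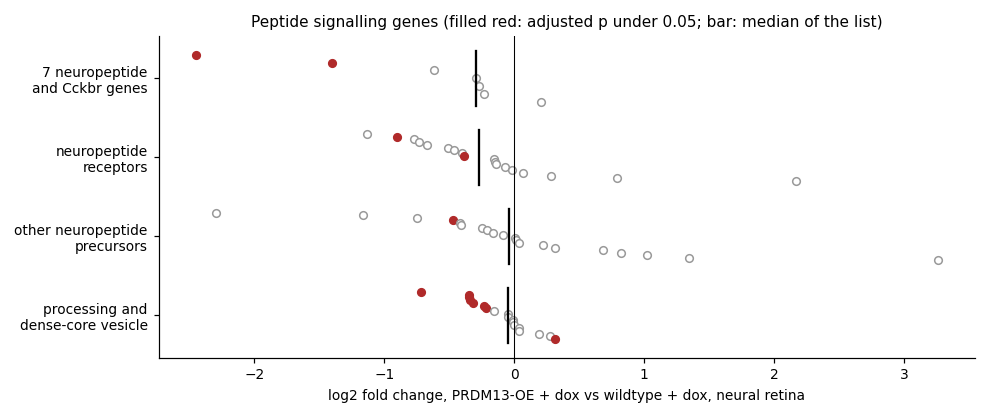
Log2 fold changes in retinas of dox-treated mice, PRDM13-OE over wildtype, for the 7 genes and for the tested genes of the 3 lists, with a point for each gene, filled where the adjusted p was under 0.05, and a bar at the median of each list. Cckbr at -2.45 and Penk at -1.40 are the only filled points past 1 in either direction, some open points also lie past 1 on both sides, and the medians of the 3 lists are at -0.27, -0.04 and -0.05.

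Tissue of origin separated the genes. In untreated wildtype mice, 5 of the 7 were called between neural retina and eye cup, where 45.2% of all genes were called and 61.5% passed. Vip was higher in retina by 3.55 on the log2 scale (adjusted p 0.00242), Sst by 3.49 (adjusted p 0.0124), Tac1 by 2.57 (adjusted p 0.0133) and Cckbr by 1.89 (adjusted p 0.0178). Penk went the other way, 17.9-fold higher in the eye cup (-4.16, SE 0.29, adjusted p 2.2e-05), at 366, 464 and 664 CPM against 40.2, 32.3 and 25.7 CPM. Cck differed by 0.12 (95% confidence interval -0.47 to 0.70) and Npy by 0.27 (-0.77 to 1.31). By FPKM, Penk led in untreated wildtype eye cups (326 ± 94.6), followed by Npy (16.9 ± 10.6), Cck (12.5 ± 4.14) and Cckbr (1.30 ± 0.886), with Tac1, Sst and Vip at means of 0.346 to 0.865. Penk did not overlap Npy there, and Cck did not overlap Cckbr. The 16 amacrine markers summed to 465 to 857 CPM in these eye cups and to 2685 to 2982 CPM in these retinas, so the order of the tissues in Penk was opposite to that of the amacrine markers. Cckbr was not called without untreated wildtype retina 3 (1.80, adjusted p 0.0573), nor Tac1 without untreated wildtype eye cup 3 (2.58, adjusted p 0.0541).

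In the eye cups, Cckbr was again lowest in PRDM13-OE mice with dox, but no gene of the 7 passed the test. There Cckbr had 1.15, 0.695 and 2.45 CPM, from 24, 12 and 43 counts, against 10.2, 10.7 and 6.41 CPM in wildtype mice with dox. These groups did not overlap. Untreated PRDM13-OE eye cups had 3.67, 6.39 and 3.85 CPM, also above, and untreated wildtype eye cups had 4.94, 0.793 and 4.57 CPM, of which mouse 2 was as low as the PRDM13-OE mice with dox. The difference between the dox groups was -2.61 (SE 0.50, 95% confidence interval -3.78 to -1.45, p 0.00101), with an adjusted p of 0.597, in a comparison where edgeR called 0.0184% of 21758 genes with the cutoff and 0.0184% without it. DESeq2 called Cckbr there (-2.64, adjusted p 0.00028), among 100 genes called. So did edgeR without PRDM13-OE dox mouse 3 (-3.24, adjusted p 0.0136), a fit that called 1767 genes in place of 4. That eye cup had the highest rod gene sum of its group, 34046 CPM against 11531 and 5155 CPM. Wildtype eye cups with dox had 23344 to 44487 CPM, so leaving mouse 3 out widens the difference in rod transcripts. Against untreated PRDM13-OE eye cups Cckbr was at -1.71 (SE 0.59, adjusted p 0.975), where 0.0139% of genes were called. Without mouse 1 of the untreated group it was -1.87 (adjusted p 0.406).

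Retinal transcripts differed in these eye cups. Summed over 10 rod genes they were at 11531, 5155 and 34046 CPM in PRDM13-OE mice with dox, 44487, 33825 and 23344 CPM in wildtype mice with dox, 12339, 19667 and 6732 CPM in untreated PRDM13-OE mice and 22330, 2842 and 11655 CPM in untreated wildtype mice. Per 1000 CPM of the rod genes, Cckbr was at 0.0720 to 0.135 CPM in the 3 eye cups of PRDM13-OE mice with dox and at 0.221 to 0.572 CPM in the other 9. In retinas the same ratio was at 0.0446 to 0.0735 and at 0.190 to 0.289. This ratio was chosen after the values were seen and is given without a test. Its denominator also differed between groups, with rod sums of 48812 to 55608 CPM in PRDM13-OE retinas with dox and 66484 to 72760 CPM in the other retinas. With the mean log2 CPM of the rod genes as a covariate over all eye cups, Cckbr was at -1.93 between the dox groups (adjusted p 0.165). Against untreated PRDM13-OE it was at -1.99 (adjusted p 0.0476), a call. That fit includes the untreated PRDM13-OE eye cups of mouse 1, whose label is in doubt, and of mouse 3, with 127 broadly expressed genes at 0.

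**Figure D5:**
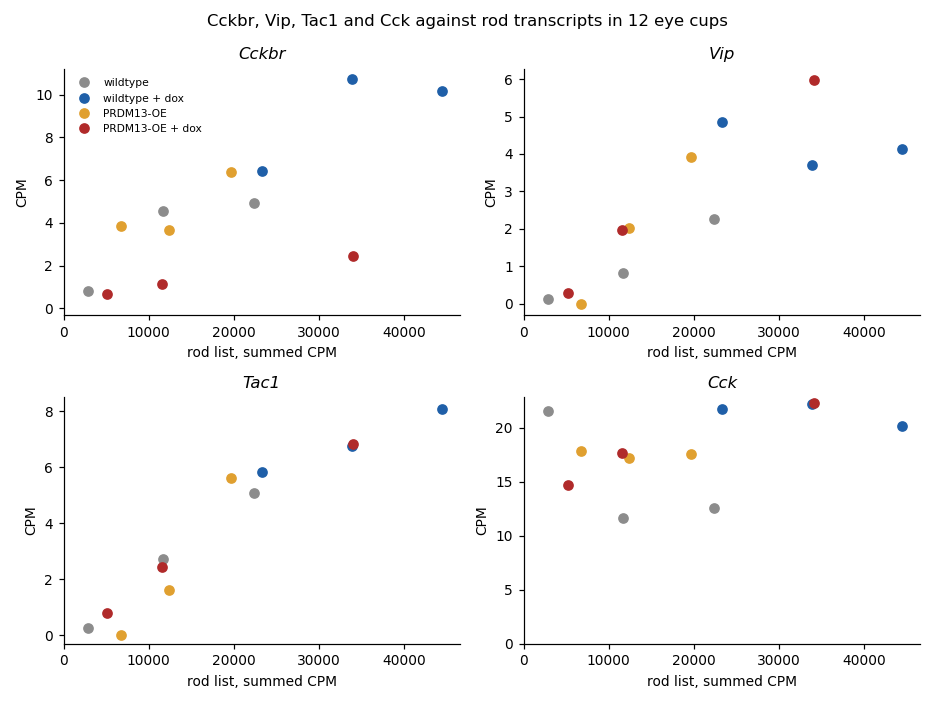
CPM of Cckbr, Vip, Tac1 and Cck against the summed CPM of 10 rod genes in the 12 eye cups, 1 panel per gene, with a colour for each of the 4 groups. The 3 eye cups of PRDM13-OE mice with dox lie lowest in Cckbr for their rod sum, at 0.695 to 2.45 CPM, and Cck stays between 11.6 and 22.3 CPM over the whole range of rod sums.

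Vip and Tac1 were low and uneven in eye cups. Vip had 1.96, 0.290 and 5.98 CPM in PRDM13-OE mice with dox and 4.13, 3.70 and 4.86 CPM in wildtype mice with dox. Tac1 had 2.44, 0.811 and 6.84 CPM in PRDM13-OE mice with dox and 8.10, 6.75 and 5.85 CPM in wildtype mice with dox. Of the 6 eye cups with dox, that of PRDM13-OE mouse 2 was lowest in rod genes and in both peptide genes. Vip, Sst, Npy and Tac1 were all listed at 0 in the eye cup of untreated PRDM13-OE mouse 3, the library with 127 broadly expressed genes at 0, so these zeros are not read as absence. Sst had 278 counts in PRDM13-OE dox mouse 3 and 0 to 51 counts in the other 11 eye cups, which gave a difference of 1.96 between the dox groups with an SE of 1.37. Without that library it was -1.48 (SE 0.84, adjusted p 0.292).

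Cck and Penk were well counted in every eye cup. Cck had 17.7, 14.7 and 22.3 CPM in PRDM13-OE mice with dox and 20.2, 22.2 and 21.7 CPM in wildtype mice with dox, a difference of -0.19 (95% confidence interval -0.70 to 0.33). Penk had 54.2, 775 and 172 CPM in PRDM13-OE mice with dox, a wider spread than the 233, 275 and 287 CPM of wildtype mice with dox. Untreated PRDM13-OE eye cups had 194, 184 and 81.7 CPM of Penk, below all 3 untreated wildtype eye cups, but the difference of -1.69 (SE 0.39, p 0.0035) did not pass, nor did that of -1.86 (adjusted p 0.153) without mouse 1 of the untreated PRDM13-OE group. Npy ranged from 3.81 to 19.7 CPM in the 11 eye cups where it was counted, with -0.59 between the dox groups (SE 0.47).

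Dox alone gave no passing difference in wildtype eye cups, where 0% of genes were called, and Vip (1.87, adjusted p 0.138), Tac1 (1.27), Cckbr (1.33) and Penk (-0.93, adjusted p 0.0737) did not overlap between the groups. The rod sums of the same eye cups, above, did not overlap either. Without untreated wildtype eye cup 1, Vip was called at 3.02 (adjusted p 0.0336) and Penk at -1.10 (adjusted p 0.0328). That eye cup had the highest rod sum of its group, 22330 CPM against 2842 and 11655 CPM, so leaving it out widens the difference in rod transcripts. The share of all genes called without it is not given here. With all wildtype eye cups kept, edgeR called 0 of 21799 genes (0%), with 6517 at an unadjusted p under 0.05 and 1979 called by DESeq2. It also called 0 of 21588 genes (0%) between the untreated genotypes, with 404 at an unadjusted p under 0.05 and 3 called by DESeq2. Without PRDM13-OE mouse 1, whose label is in doubt, edgeR called 298 genes between the untreated genotypes, 8 higher and 290 lower, with none of the 7 among them. No gene of the 3 peptide lists passed in an eye cup comparison.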

How the data were processed

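RNA was extracted from 12 neural retinas and 12 eye cups, and poly(A) RNA was sequenced. The authors deposited read counts per gene, without normalization, for 56748 genes, and FPKM values made from those counts and gene lengths. The submitters' processing notes name CASAVA, HISAT2 and the builds GRCm39 and mm39, and the counting tool, annotation release and strand setting are not given in the sources used here. The deposited columns of the authors' comparisons (group means, fold changes, p-values) were not used.

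For the libraries of each comparison, genes with a summed count of at least 10 entered edgeR's quasi-likelihood test (version 4.0.16, under R 4.3.3), with TMM factors, robust fitting off and Benjamini-Hochberg adjustment. The interaction was fitted over 12 retinas. A call was an adjusted p under 0.05 with a log2 fold change past 1. The CPM values were computed from the deposited counts and TMM-adjusted library totals (15825059 to 24908314 before adjustment), and the fitted log2 fold changes from the counts as deposited. No 2 libraries were identical. Alternatives were DESeq2 1.42.0, library size in place of TMM, other filters, robust fitting, 1 fit per tissue, a replicate block, covariates, and leaving out each library. Peptide list genes that passed were also refitted with each retina left out. These refits, a fibroblast covariate and the removal of wildtype dox retinas 1 and 2 were chosen after seeing the data. The tests were tested on simulated data. Figures were drawn with matplotlib 3.10.9.

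The 7 genes and all lists were chosen with earlier results of these data known. Named genes are the 7 genes, up to 6 genes of each peptide list with the smallest adjusted p among those that passed, the 3 most alike genes, and Cckar as the other cholecystokinin receptor. Outside this rule, Scg2, Cadps, Gm13394, Xist and Hbb-bs were named after their values were seen, Prdm13 as the mouse gene of the transgene's factor, and Col1a1 and Dcn as examples of the fibroblast list.

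The retina and eye cup of untreated wildtype mice with the same number come from the same mouse. Their deviations from the group means correlated at 0.0274, 0.0588 and 0.0427, and with the mouse as a block 5 of the 7 genes were called, as without it. Precision is limited by 3 mice a group and, for the rarer genes, by their counts.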

Additional observations from a re-analysis of the deposited data

Results flagged for a closer look

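Dox effects in the retina that differed between PRDM13-OE and wildtype mice, by the interaction of genotype and dox in edgeR over 12 retinas, were found for 3 of 68 genes tested among the 7 genes and the 3 peptide lists, or 4.41%, where 3.03% of all genes passed. Cckbr was at -2.55 (SE 0.22, adjusted p 3.2e-06), with all 3 PRDM13-OE retinas with dox below every other retina. Tacr1 was at -0.96 (SE 0.25, adjusted p 0.0474), with its highest value in wildtype dox retina 2, and Pam at -0.33 (SE 0.09, adjusted p 0.0475). With each retina left out in turn, Tacr1 passed in 1 of 12 fits and Pam in 2 of 12.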

How the results depend on the processing

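Of 1126 values of the 7 genes under other settings, 1106 stayed on their side of the threshold for a call, 11 lost and 9 gained a call, and none of the called values reversed. Values not called changed sign in 69 cases. Of the 7 genes, 2 were called between the retinas with dox, and 1, Cckbr, with DESeq2, robust fitting, all retinas in 1 fit, the lens crystallin covariate, and wildtype dox retinas 1 and 2 left out (leaving 1 wildtype retina, assumed to vary like the others), the loss being Penk. Without a filter on low counts, 2 rather than 1 were called in the interaction, the second being Penk. In the eye cups 1 rather than 0 was called between the dox groups with DESeq2 (Cckbr), against untreated PRDM13-OE with the rod covariate (Cckbr), and in wildtype dox against untreated with DESeq2 (Vip, 1.92, adjusted p 0.0443). The causes were not tested.

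Leaving out each library in turn gave 1 to 2 calls among the 7 genes between the retinas with dox, 1 to 1 against untreated PRDM13-OE and in the interaction, 0 to 1 in wildtype dox against untreated and 0 to 0 between the untreated genotypes of either tissue. The 1 call was Penk without wildtype dox retina 3. In the eye cups the counts were 0 to 2 between the dox groups, 0 to 0 against untreated PRDM13-OE and 0 to 2 in wildtype dox against untreated. Without PRDM13-OE dox eye cup 3, Cckbr and Tac1 (-2.02, adjusted p 0.0437) were called and the count over all genes was 1767 in place of 4, which was 100 with DESeq2. Without untreated wildtype eye cup 1, Vip and Penk were called. Between the tissues 4 to 5 were called, losing Cckbr without untreated wildtype retina 3 and Tac1 without untreated wildtype eye cup 3.

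The replicate block on the mouse number changed no call among the 7 genes. Between the retinas with dox Cckbr was at -2.44 and Penk at -1.52 (adjusted p 0.0193) under it, and Penk in wildtype retinas with against without dox passed (0.93, adjusted p 0.00876), below the cutoff. Within a tissue the numbers name different mice, whose deviations correlated between -0.357 and 0.414. Over all genes, 186 higher and 309 lower calls between the retinas with dox became 279 and 269 with library size in place of TMM and 221 and 224 with robust fitting, and 675 calls were made without a filter. With all retinas in 1 fit the count was 430, and 165 with the crystallin covariate added to it. With 3 mice a group and as few as 12 counts of Cckbr in an eye cup, small differences could not be detected.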
